A study of Homo sapiens with 6 samples.

Results

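The 9 genes described here belong to the antioxidant programme of human cells: NFE2L2, which encodes the transcription factor NRF2, its relative NFE2L1, the NRF2 inhibitor KEAP1, and 6 classical antioxidant targets, HMOX1, NQO1, GCLC, GCLM, TXNRD1 and SRXN1. They were chosen by name, out of 19775 genes that had a probe set of their own on the array. These 9 genes, and the gene lists read beside them, were chosen with earlier results of these data known. Counts of calls among them, set beside the share of all genes, are therefore descriptions. Every probe set annotated to one of these symbols alone was read, which gave 20 probe sets of 54675. RNA came from Daoy, an established human medulloblastoma cell line, so every array measured the same line and each sample was a culture of it. Cells were either left untreated or given thapsigargin (Tg, 1 µM) for 3 h or 8 h, with 2 arrays per group and 6 arrays in all. Thapsigargin blocks the calcium pump of the endoplasmic reticulum (ER) and sets off the unfolded protein response (UPR). The values are MAS5 signals, linear intensities per probe set, with each array brought to one trimmed mean.

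In resting cells KEAP1 holds NRF2 in the cytosol and hands it to the CUL3 ubiquitin ligase for destruction. When electrophiles or oxidants modify KEAP1, NRF2 escapes, enters the nucleus with a small MAF protein and binds the antioxidant response element (ARE) of its target genes. The ER stress kinase PERK has been described to phosphorylate NRF2. NFE2L1 is anchored in the ER membrane, is normally extracted and destroyed, and is best known for raising proteasome genes when the proteasome fails. Both factors are controlled largely at the protein level, which an expression array does not see.

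In the main test, which left the replicate numbers out, 0 of the 9 genes passed at 3 h or at 8 h. An alternative test compared each thapsigargin array with the untreated array of the same replicate number. In that alternative 3 of the 9 genes moved at 8 h, where 8.51% of all genes passed. NFE2L1 rose, on average to 2.12 times the untreated signal, GCLC rose to 1.49 times, and KEAP1 fell to 0.621 times. At 3 h none of the 9 passed, and the mean log2 changes of GCLM, NQO1 and SRXN1 at their brightest probe sets lay between -0.19 and 0.04 at both times. HMOX1, the best known marker of oxidative stress, differed far more between the replicate numbers than between the groups.

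Those changes depended on how the replicate numbers were handled. In the limma fit without the replicate number, 0 of 9 genes passed an adjusted p of 0.05 at 3 h, where 0.0699% of the 12884 genes tested did. At 8 h it was again 0 of 9, against 0.854% of all genes, 0.644% higher and 0.21% lower, and between 8 h and 3 h 0 of 9, against 0.0%. At an unadjusted p under 0.05 in that limma fit the counts were 0, 2 and 1 of 9, where 4.5%, 12.1% and 7.8% of all genes passed. The local pooled error test, rebuilt here from its description, called 0 of 9 in each comparison. Of all genes it called 0.318% at 3 h, 1.39% at 8 h and 0.334% between the times. Over all probe sets it called 59 at 3 h and 302 at 8 h. The study's methods name this test, but the study reports more differential probe sets than the rebuilt version called. The rebuilt counts therefore do not stand for the result of the study's own test.

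Arrays with the same number deviated together, and the methods describe independent experiments, so the limma fit with the replicate number as a term (the blocked fit) is given beside the other. It called 0 of 9 genes at 3 h, where 1.24% of all genes passed, 1.16% higher and 0.0776% lower. At 8 h it called 3 of 9, against 8.51% of all genes. Of these 3, NFE2L1 and GCLC were higher, where 4.74% of all genes were, and KEAP1 was lower, where 3.77% were. Between 8 h and 3 h it called 2 of 9, NFE2L1 and KEAP1, against 3.24%. The median log2 change of the 9 genes was 0.14 at 3 h and 0.36 at 8 h, beside -0.02 and -0.09 over all genes tested. With 2 arrays a group, both fits lean on the spread shared over probe sets.

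**Figure D1:**
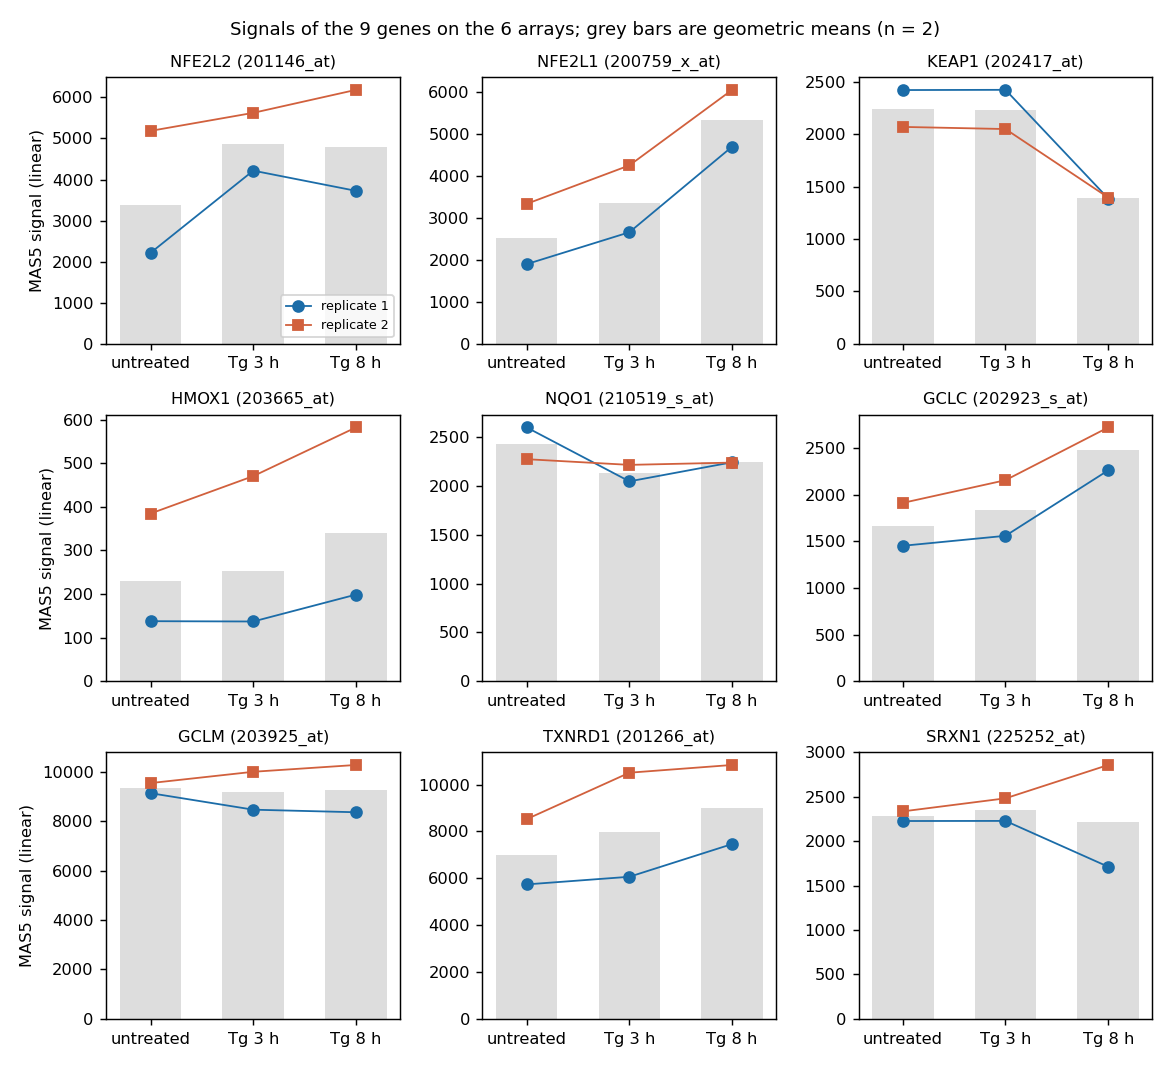
MAS5 signal (linear axis from 0) of the brightest probe set of each of the 9 genes in untreated cells and after 3 h and 8 h of thapsigargin (Tg). Blue circles are replicate 1, orange squares replicate 2, lines join arrays of the same number and grey bars are geometric means of the 2 arrays. NFE2L1 and GCLC lie above both untreated arrays at 8 h and KEAP1 and, narrowly, NQO1 below them, while HMOX1 shows a wide gap between the replicate numbers in every group. How many of all genes lay apart in this way was not counted.

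Because NRF2 and NFE2L1 read the ARE, the promoters of the genes were searched for its core letters, TGACNNNGC, on both strands. The RefSeq promoter table used here (build GRCh38.p14) runs from 250 bases before to 50 bases after each start. It held 12 promoters for 8 of the 9 genes, all but HMOX1. The core was found in 4 of these 12 promoters, belonging to GCLM, TXNRD1 and KEAP1, and in 13.3% of all 35116 promoters in the table. The matches are shown because these factors recognise such a stretch, and the signals of the 3 genes that hold one are given further on. Each line gives 29 bases on the gene's own strand with the matching letters in capitals. A match that reads GC first lies on the opposite strand.
GCLM, chr1:93909446-93909474, minus strand: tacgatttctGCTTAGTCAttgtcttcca
TXNRD1, chr12:104286920-104286948, plus strand: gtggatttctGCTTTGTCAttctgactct
TXNRD1, other start, chr12:104215670-104215698, plus strand: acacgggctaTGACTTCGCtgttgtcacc
KEAP1, chr19:10502784-10502812, minus strand: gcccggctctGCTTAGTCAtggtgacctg
KEAP1, same promoter, chr19:10502807-10502835, minus strand: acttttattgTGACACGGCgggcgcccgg
The GCLM match lies 34 to 26 bases before the start and the KEAP1 matches 31 to 23 and 54 to 46 bases before theirs, all in the promoter just upstream of transcription. The promoter of that other TXNRD1 start held a further match across its start. GCLM and one of the KEAP1 stretches hold the same 9 letters. Neither the AP-1 letters TGANTCA, found in 7.71% of all promoters, nor the ATF4 letters TGATGNAA, found in 3.62%, occurred in the 12 promoters. A match is only a run of letters, and a window without one says nothing about more distant elements.

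Among the regulators, NFE2L2 was read at 201146_at, its brightest probe set. The signals were 2213.3 and 5184.7 in untreated cells, 4216.5 and 5624.1 at 3 h, and 3724.0 and 6184.6 at 8 h, for replicates 1 and 2. Replicate 1 started low and accounted for most of the difference, and the treated arrays of replicate 1 lay below the untreated array of replicate 2, so the groups overlapped. The log2 change within replicate 1 was 0.93 at 3 h and 0.75 at 8 h, and within replicate 2 it was 0.12 and 0.25. The mean log2 change was 0.52 at 3 h and 0.50 at 8 h, with limma adjusted p of 1.0 and 0.782, and 0.297 and 0.139 in the blocked fit, so NFE2L2 did not pass at either time. Without untreated replicate 2 the blocked fit called NFE2L2 at both times. Without untreated replicate 1 the limma fit without the block put its log2 change at -0.09 at 3 h and -0.11 at 8 h. Another probe set, 1567013_at, went from 132.9 and 61.3 to 272.4 and 50.7 and then to 92.3 and 39.6. A further probe set, 1567015_at, stayed under the limit for testing, a signal of 100 on at least 2 arrays.

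KEAP1, the adaptor that delivers NRF2 to its ligase, was measured by 202417_at. Its signals were 2422.6 and 2070.7 in untreated cells, 2424.7 and 2050.3 at 3 h, and 1387.1 and 1396.2 at 8 h. The 3 h arrays matched the untreated ones closely within each replicate number, and both 8 h arrays lay below all 4 others. At 8 h the log2 change was -0.69, with a limma adjusted p of 0.259. In the blocked fit KEAP1 fell, with SE 0.14, a 95% interval from 0.50 to 0.77 times the untreated signal and an adjusted p of 0.0189. Between 3 h and 8 h it fell by 0.68 on the log2 scale, with an adjusted p of 0.0384 in the blocked limma fit. The call at 8 h was lost when untreated replicate 1 (blocked adjusted p 0.200), untreated replicate 2 (0.0708) or Tg 8 h replicate 1 (0.201) was left out, while the log2 change ran from -0.81 to -0.56 over the fits that left out an array.

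NFE2L1 had 3 probe sets, and in each of them both 8 h arrays lay above both untreated arrays. These probe sets read the same gene on the same 6 arrays, so they are not separate evidence. How many of all probe sets lay this way was not counted. The brightest, 200759_x_at, read 1895.4 and 3330.5 in untreated cells, 2654.7 and 4246.2 at 3 h, and 4692.2 and 6044.6 at 8 h. Each replicate was higher at each later time, while the 3 h and untreated groups overlapped because replicate 2 began higher. Replicate 1 gave a log2 change of 1.31 at 8 h and replicate 2 one of 0.86. The mean was 1.08 with SE 0.34 and a limma adjusted p of 0.289, and the blocked fit gave SE 0.14, a 95% interval from 1.70 to 2.64 times the untreated signal and an adjusted p of 0.00191. This call held in the blocked fit whichever of the 6 arrays was left out, and was lost there without the intensity trend in limma's spread (adjusted p 0.197), as were those of KEAP1 (0.233) and GCLC (0.257). The suffix _x_at marks a probe set some of whose probes may match other transcripts.

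A second NFE2L1 probe set, 214179_s_at, went from 1080.2 and 1563.3 in untreated cells to 1468.7 and 2177.5 at 3 h and to 2788.5 and 3289.3 at 8 h. Both 8 h arrays lay above all 4 others, and the log2 change at 8 h was 1.22, with a limma adjusted p of 0.131 and 0.0012 in the blocked fit. The remaining one, 200758_s_at, read 2803.1 and 2614.6, then 2644.3 and 3783.0, then 3404.4 and 4495.5. Its log2 change at 8 h was 0.53, and it did not pass in the blocked fit, with an adjusted p of 0.0902. So 2 of the 3 probe sets of this gene passed in the blocked fit at 8 h, where 1819 of all 27616 probe sets tested did. From 3 h to 8 h the blocked limma fit put the log2 change at 0.67 for 200759_x_at (adjusted p 0.0419) and 0.76 for 214179_s_at (adjusted p 0.0286). These later calls were less stable: for 200759_x_at the adjusted p was 0.280 without Tg 3 h replicate 1, 0.097 without Tg 3 h replicate 2 and 0.481 without Tg 8 h replicate 1.

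**Figure D2:**
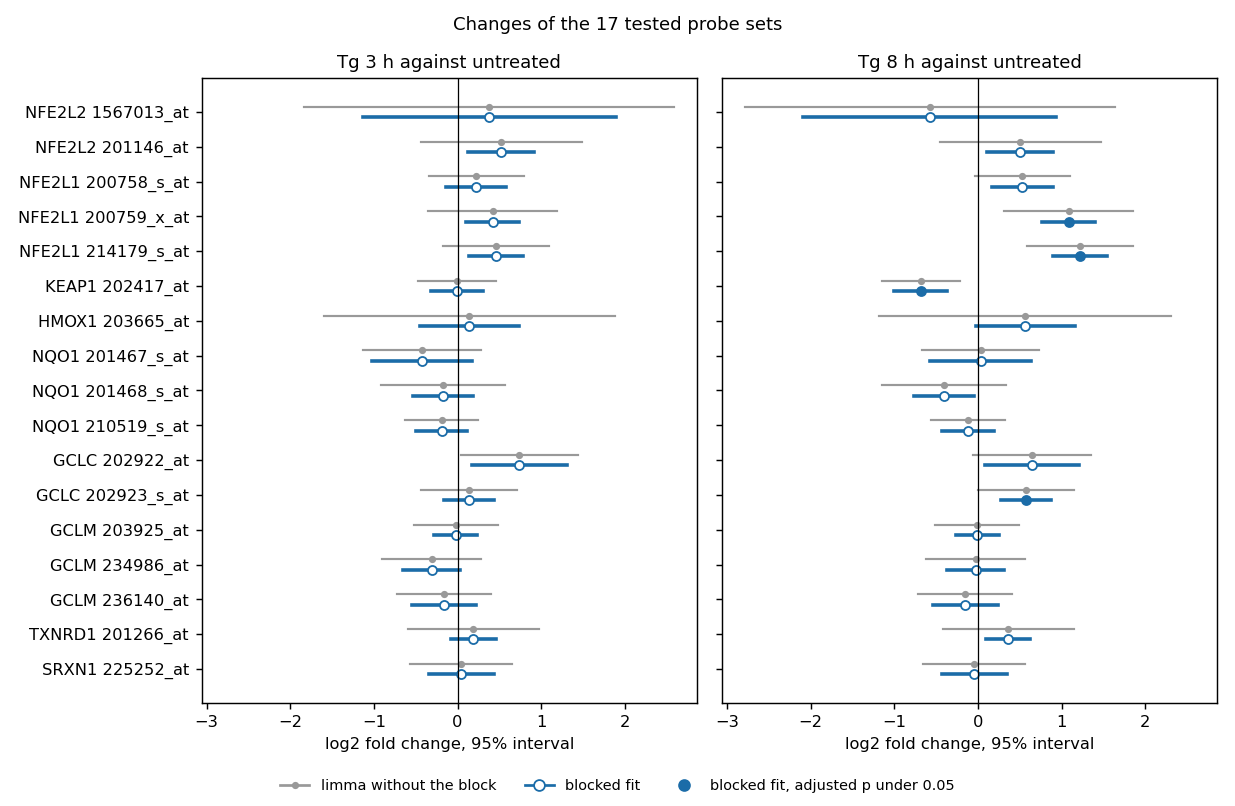
Log2 fold change of the 17 tested probe sets at 3 h (left) and 8 h (right) against untreated cells, with 95% intervals on the horizontal axis. Grey is the limma fit without the replicate block and blue the blocked fit, filled where the adjusted p was under 0.05. No blue point is filled at 3 h, and at 8 h those of 2 NFE2L1 probe sets, KEAP1 and 1 GCLC probe set are. Of all 27616 probe sets tested, the blocked fit called 274 at 3 h and 1819 at 8 h.

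Glutathione synthesis starts with glutamate-cysteine ligase, made of the catalytic subunit GCLC and the modifier subunit GCLM, and only GCLC passed a test. GCLC at 202923_s_at read 1450.9 and 1909.9 in untreated cells, 1557.9 and 2153.3 at 3 h, and 2258.9 and 2718.3 at 8 h. Both 8 h arrays lay above all others, while at 3 h the groups overlapped. The log2 change at 8 h was 0.57, with a limma adjusted p of 0.502. In the blocked fit GCLC rose, with SE 0.13, a 95% interval from 0.27 to 0.88 and an adjusted p of 0.036. This call was lost when either untreated array or either 8 h array was left out, with blocked adjusted p of 0.250 and 0.141 without untreated replicates 1 and 2, and 0.314 and 0.0728 without Tg 8 h replicates 1 and 2. The other tested GCLC probe set, 202922_at, read 591.3 and 717.1, then 1473.0 and 803.2, then 1033.3 and 1008.9. Its treated arrays lay above the untreated ones at both times, and its log2 changes of 0.74 and 0.65 did not pass, with blocked adjusted p of 0.297 and 0.177. Another probe set, 1555330_at, stayed below the limit for testing.

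GCLM was bright and flat. Its signals at 203925_at were 9127.4 and 9535.1 in untreated cells, 8459.7 and 9992.4 at 3 h, and 8355.7 and 10267.9 at 8 h. The groups overlapped, and the log2 change was -0.02 at 3 h and -0.01 at 8 h, with a 95% interval in the blocked fit from -0.27 to 0.25 at 8 h. The other 2 GCLM probe sets gave log2 changes of -0.03 and -0.15 at 8 h, and neither passed. GCLM holds an ARE core in its promoter, as printed above.

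TXNRD1, the cytosolic thioredoxin reductase that recycles thioredoxin with NADPH, was read at 201266_at. It went from 5740.9 and 8525.2 in untreated cells to 6066.8 and 10508.7 at 3 h and to 7463.4 and 10839.0 at 8 h. It was higher on replicate 2 in every group, by 1.48, 1.73 and 1.45 times, and the groups overlapped. The log2 change of 0.36 at 8 h did not pass, with a limma adjusted p of 0.824, and 0.111 in the blocked fit, where its 95% interval ran from 0.10 to 0.63. Its other probe set, 1561080_at, stayed below the limit for testing.

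SRXN1, sulfiredoxin, repairs over-oxidised peroxiredoxins. Its signals were 2226.9 and 2335.1, then 2228.0 and 2482.2, then 1712.1 and 2857.6 at 8 h, where the replicates moved apart in opposite directions. The mean log2 change was 0.04 at 3 h and -0.04 at 8 h, with an interval in the blocked fit from -0.43 to 0.35 at 8 h.

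NQO1, a quinone reductase and the usual marker of NRF2 activity, read 2599.4 and 2274.0 in untreated cells, 2047.0 and 2215.8 at 3 h, and 2242.4 and 2239.1 at 8 h at its brightest probe set, 210519_s_at. The 3 h arrays and the 8 h arrays both lay just below the untreated ones. The log2 change was -0.19 at 3 h and -0.12 at 8 h, and the interval at 8 h in the blocked fit ran from -0.43 to 0.19, so it did not pass. The probe set 201468_s_at went from 1857.6 and 1381.3 to 1410.8 and 1042.1 at 8 h, a log2 change of -0.40. The probe set 201467_s_at read 806.9 and 511.8 in untreated cells and 657.3 and 655.0 at 8 h, a log2 change of 0.03. None of the 3 passed at either time.

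HMOX1, heme oxygenase 1, breaks heme down to biliverdin, iron and carbon monoxide. Its signals at 203665_at were 137.9 and 384.6 in untreated cells, 137.2 and 470.4 at 3 h, and 198.9 and 582.1 at 8 h. Replicate 2 was higher than replicate 1 by 2.79, 3.43 and 2.93 times, and the groups overlapped throughout. Its log2 signal ranged over 2.09 units across the 6 arrays, the widest range of the 9 genes. At 8 h its log2 change was 0.56, with a limma adjusted p of 0.897 and, in the blocked fit, 0.269 and a 95% interval from -0.03 to 1.16. Without the block it turned to -0.21 when Tg 8 h replicate 2 was left out and to -0.18 when untreated replicate 1 was. The signal was higher at 8 h than in the untreated array of the same number in both replicates.

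Most of the 9 genes were, like HMOX1, higher on replicate 2 at their brightest probe sets, but by a smaller gap. Among the others that were higher in untreated cells, the log2 difference ran from 0.06 for GCLM to 1.23 for NFE2L2, against 1.48 for HMOX1. The probe sets 1567013_at of NFE2L2 and 201468_s_at of NQO1 were lower on replicate 2 in every group. Over all genes 11.8%, 11.8% and 9.93% differed by more than 1 on the log2 scale in the 3 groups. In untreated cells 7 of 9 were higher on replicate 2, and 8 of 9 were at each time of thapsigargin. Over all genes 53.6%, 49.2% and 53.1% were higher on replicate 2 in the 3 groups. The median log2 difference of the 9 genes was 0.40, 0.42 and 0.37, against 0.05, -0.01 and 0.04 over all genes tested. The exceptions were KEAP1 in untreated cells and at 3 h, and NQO1 in untreated cells and at 8 h. Whether the gap came from the cultures or from the arrays was not tested. The array medians over all probe sets were 84.8 to 103 for replicate 1 and 69.7 to 75.3 for replicate 2.

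**Figure D3:**
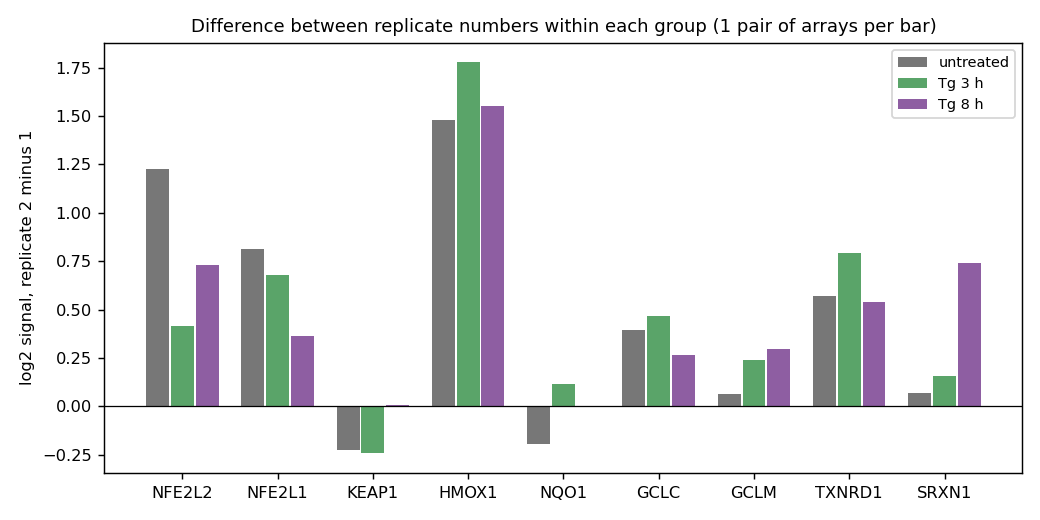
Log2 signal of replicate 2 minus replicate 1 for the brightest probe set of each of the 9 genes, 1 bar per group (grey untreated, green 3 h, purple 8 h). HMOX1 has the tallest bars, with replicate 2 at 2.79 to 3.43 times replicate 1, while KEAP1 is lower on replicate 2 in untreated cells and at 3 h and NQO1 in untreated cells and, slightly, at 8 h.

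The genes whose log2 signal followed HMOX1 most closely over the 6 arrays, among 7482 genes with a mean signal of at least 500, were ORC4, ILK, GSKIP, PCNX4 and RNPS1. Pearson's r was 0.996 for ORC4 and 0.993 for RNPS1, the fifth. With 6 arrays in 3 groups and 2 replicate numbers, the points share these sources, and the likeness is a description only. ORC4 read 2247.7 and 3155.9 in untreated cells and 2593.0 and 3441.7 at 8 h, again higher on replicate 2. Pearson's r leaves out the size of the differences: over the 6 arrays ILK ran from 2319.9 to 2868.1, while HMOX1 ran from 137.2 to 582.1.

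The proteins that control NRF2 were read from a list of 13 partners, competitors and turnover factors, of which 11 were tested. MAFF, a small MAF protein that pairs with NRF2 and with other factors, was read at 36711_at, its brightest probe set. Its signals were 1128.1 and 1615.6 in untreated cells, 3562.4 and 5450.6 at 3 h, and 4000.2 and 5562.6 at 8 h. The treated arrays lay above the untreated ones at both times. MAFF rose at 8 h by 1.80 on the log2 scale, with a limma adjusted p of 0.0469 without the block and 5.96e-05 in the blocked fit, and at 3 h by 1.71, where it passed in the blocked fit (0.0002) and in the local pooled error test (0.0213) but not in limma without the block (0.185). The call held in the blocked fit whichever array was left out, and without the block only when that array was untreated replicate 2, with adjusted p of 0.0653 to 0.256 otherwise. The other MAFF probe set, 205193_at, was higher by 1.45 at 8 h and by 1.56 at 3 h on the log2 scale. It passed in the blocked fit, with adjusted p of 0.00214 and 0.00457. In limma without the block it did not pass (0.0931 and 0.246), nor in the local pooled error test (0.132 and 0.351). MAFF, read at 36711_at, was the 1 gene of this list that passed without the block, where 0.644% of all genes were higher at 8 h. In the blocked fit 2 of 11 passed at 8 h, against 8.51% of all genes. At 3 h 1 of 11 rose in that fit, MAFF, against 1.16% of all genes, and 1 fell, CUL3, against 0.0776%. There BACH1, a repressor at the ARE, rose at 8 h by 0.63, and CUL3, the ligase scaffold that KEAP1 serves, fell at 3 h by 0.81 on the log2 scale with an adjusted p of 0.0488. BACH1 and CUL3 are named after their values were seen, and both calls were lost when untreated replicate 1 was left out, with adjusted p of 0.440 for BACH1 and 0.414 for CUL3. The BACH1 call was also lost without either Tg 8 h array (0.205 and 0.0673), and the CUL3 call without Tg 3 h replicate 1 (0.382). The median of the list was -0.20 at 8 h.

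For NFE2L1, 2 of 3 genes of its release from the ER were tested. VCP, the ATPase that extracts proteins from the ER membrane, read 5344.6 and 5979.1 in untreated cells and 8396.2 and 8538.2 at 8 h. Neither limma without the block (adjusted p 0.353) nor the local pooled error test called VCP at 8 h. With the block VCP was the 1 call among these 2 genes at 8 h, where 4.74% of all genes were called higher. It rose by 0.58 in the blocked fit, with an adjusted p of 0.0162, and was lost without either untreated array (0.123 and 0.0572) or without Tg 8 h replicate 1 (0.201). The proteasome subunits, the best known targets of NFE2L1, were flat. Of 31 listed, 27 were tested, and 0 rose or fell in either limma fit or in the local pooled error test at any time. At 8 h their log2 changes lay between -0.25 and 0.20 with a median of -0.06, and 0 of them reached an unadjusted p under 0.05 at 8 h in any of these tests. The blocked fit had 2 of them under that level at 3 h and 2 between the times.

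Other NRF2 targets were read by function. Of 9 tested genes of glutathione and NADPH supply, 1 was called at 8 h in the blocked fit, SLC7A11, against 8.51% of all genes. SLC7A11, the cystine importer that feeds glutathione synthesis, read 523.8 and 6641.8 in untreated cells, 2632.9 and 6683.7 at 3 h, and 9242.0 and 11093.5 at 8 h. Untreated replicate 1 stood far below the rest, and replicate 1 gave a log2 change of 4.14 at 8 h and replicate 2 one of 0.74. Its mean change of 2.44 had a limma adjusted p of 0.475 without the block and 0.0369 in the blocked fit, and the local pooled error test called it with 1.25e-07. In the blocked fit it was 0.109 without untreated replicate 1, which put the log2 change at 1.01, and 0.0524 without Tg 3 h replicate 1. The median over the 9 genes was 0.01.

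Of 19 tested genes of detoxification and transport, UGDH rose and CBR3 and CBR1 fell at 8 h in the blocked fit, 3 of 19 against 8.51% of all genes, and none passed in limma without the block or in the local pooled error test. UGDH, which makes UDP-glucuronic acid, went from 2121.1 and 2184.7 to 4888.3 and 3611.2, a log2 change of 0.96 with a blocked adjusted p of 0.00419 in limma. CBR3, a carbonyl reductase, went from 884.8 and 973.4 to 365.2 and 407.7, a log2 change of -1.27 with an adjusted p of 0.00646. CBR1, its close relative, had a log2 change of -0.63 with an adjusted p of 0.0496. UGDH was lost without untreated replicate 1 (adjusted p 0.0581), CBR3 without untreated replicate 2 (0.0604), and CBR1 without either Tg 8 h array (0.244 and 0.0607) or untreated replicate 1 (0.502). The median of this list at 8 h was -0.23. None of the 3 tested thioredoxin and peroxiredoxin genes or of the 6 tested iron and heme genes passed at any time in either fit or in the local pooled error test. Before adjustment the blocked fit put 0 and 1 of them under 0.05 at 8 h.

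**Figure D4:**
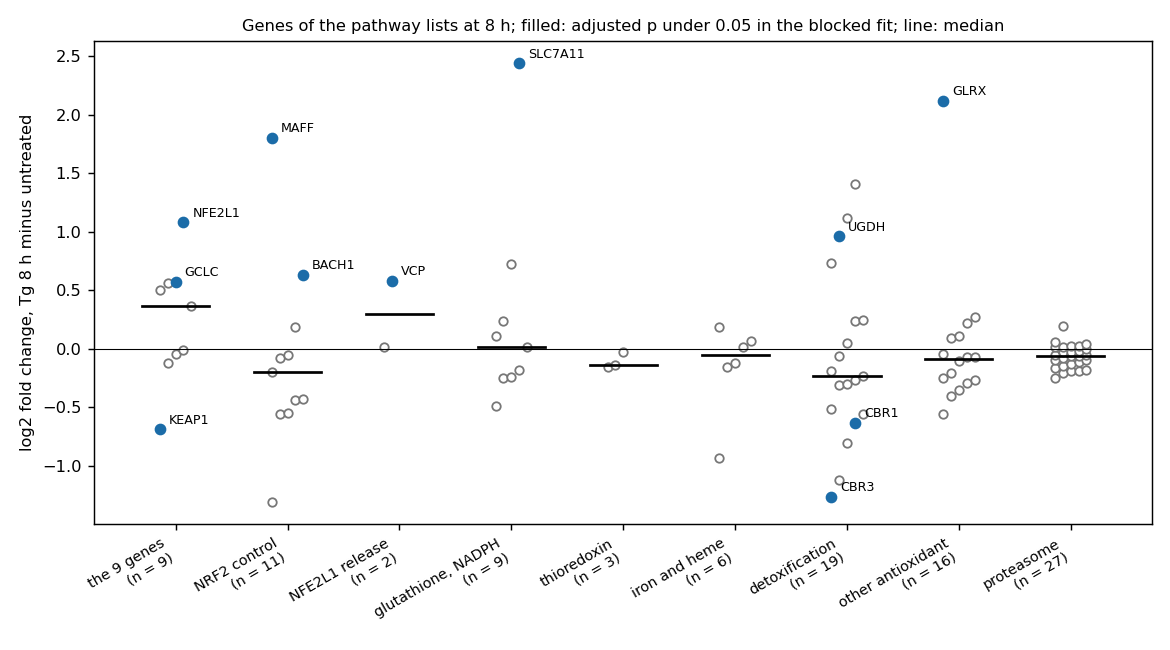
Log2 fold change at 8 h against untreated cells (vertical axis) for the tested genes of each list, 1 point per gene read at its brightest probe set, with the list median as a black line. Filled points had an adjusted p under 0.05 in the blocked fit; the 27 proteasome subunits lie between -0.25 and 0.20, and the median of the 9 genes is 0.36.

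Among 16 tested antioxidant enzymes that are not usually classed as NRF2 targets, only GLRX passed. At 8 h that was 1 of 16 in either limma fit, against 0.854% of all genes without the block and 8.51% with it. GLRX, glutaredoxin, removes glutathione from protein thiols. Its signals were 3039.3 and 5036.0 in untreated cells, 8658.4 and 9658.0 at 3 h, and 17585.6 and 16457.6 at 8 h, so the 3 groups did not overlap and followed the time of treatment. GLRX rose at 8 h by 2.12 on the log2 scale, with a limma adjusted p of 0.0211 without the block and 0.000191 in the blocked fit. From 3 h to 8 h it rose by 0.90, with an adjusted p of 0.0318 in the blocked fit. At 8 h the call held in the blocked fit whichever array was left out, and without the block only when that array was untreated replicate 2, with adjusted p of 0.053 to 0.183 otherwise. Between the times it was lost when either 3 h array (0.190 and 0.125) or Tg 8 h replicate 1 (0.205) was left out.

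Known UPR genes were read as a check of the treatment, 5 in all. At 8 h limma without the block called 1 of the 5, against 0.854% of all genes. The blocked fit called 3, against 8.51%, and the local pooled error test 4, against 1.39%. At their brightest probe sets ATF4 and CHAC1 passed in neither limma fit at 8 h. HSPA5, the ER chaperone BiP, had a log2 change of 1.70 at 8 h, at its brightest probe set, 211936_at, with an adjusted p of 0.00156 in the blocked limma fit and 2.32e-08 in the local pooled error test, and did not pass there in limma without the block. Its other probe set, 230031_at, had a log2 change of 3.90 and passed in limma without the block, with an adjusted p of 0.00371. DDIT3, which encodes CHOP, rose by 4.41 at 8 h, with an adjusted p of 0.0211 without the block, lost there without Tg 3 h replicate 2 (0.0524) or either Tg 8 h array (0.155 and 0.113). Markers of the neuronal lineage were mixed: 7 of 11 were tested, with ZIC1 at 1967.1 to 3427.2, while SYP and RBFOX3 stayed below the limit for testing. Of other cell types, 0 of 3 astrocyte, 1 of 5 immune and 3 of 5 endothelial markers were tested, PTPRC and CD14 staying below the limit. Those tested were dim: PECAM1 read 71.8 to 134.9, KDR 62.8 to 224.5, TEK 94.6 to 358.9 and the immune CSF1R 11.6 to 124.5. COL1A1 read 17638.9 to 33447.7, and 3 of 4 fibroblast markers were tested, with LUM at 243.4 to 898.8 and DCN at 36.3 to 102.2.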

How the data were processed

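RNA of untreated and thapsigargin-treated Daoy cells was hybridised to HG-U133 Plus 2.0 arrays, with 2 arrays in each group. The values the authors deposited are linear MAS5 signal intensities, each array scaled to a trimmed mean of 500. No detection calls were used. Log2 signals of the 27616 probe sets that reached 100 on 2 or more of the 6 arrays were fitted here with limma 3.58.1 in R 4.3.3 (lmFit, then eBayes with intensity trend), two-sided, with Benjamini-Hochberg adjustment over all of them and a threshold of 0.05. A gene was read from its brightest tested probe set. Groups came from the sample labels. Arrays with the same replicate number deviated together, with correlations of 0.28, 0.32 and 0.26 between groups over the 27616 probe sets. The methods describe independent experiments, so the numbers were taken as pairs, although the labels do not say that a number marks 1 experiment. Every call of the blocked fit rests on that pairing. Nothing more is stated on the cultures, so the p-values cover only the spread seen among the 6 arrays. The number of arrays limits the precision.

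The local pooled error test was rebuilt from its description. Other alternatives were another normalization, filter, floor, pseudocount, moderation, probe set rule, and leaving out each array. The steps were tested on simulated data. The members and lists were chosen with earlier results of these data known. From the lists, up to 3 genes were named with the largest change at 8 h among those called without the block, or else in the blocked fit, and from the thapsigargin controls HSPA5 and DDIT3. Of the 9 genes, 1 probe set shared with another gene was left out. Promoters came from a RefSeq table and were searched in Python 3.11.15 with pandas 2.3.3.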

Additional observations from a re-analysis of the deposited data

Results flagged for a closer look

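NFE2L1, KEAP1 and GLRX changed differently at 8 h than at 3 h by the test of that difference, the 8 h minus 3 h comparison of the blocked limma fit. NFE2L1 was higher at 8 h by 0.67 on the log2 scale, with an adjusted p of 0.0419. KEAP1 stood at -0.68, with an adjusted p of 0.0384. GLRX was higher by 0.90, with an adjusted p of 0.0318. Each of these was lost when Tg 3 h replicate 1, Tg 3 h replicate 2 or Tg 8 h replicate 1 was left out, with adjusted p of 0.28, 0.097 and 0.481 for NFE2L1, 0.271, 0.0772 and 0.364 for KEAP1, and 0.19, 0.125 and 0.205 for GLRX. Without the block none of them passed. The untreated arrays enter the spread of this comparison but not its log2 values.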

How the results depend on the processing

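Of 459 values of the 9 genes recomputed under an alternative, 418 kept their sign and their side of the threshold, 5 passed only with the replicate block, and 36 took the other sign while passing in neither, 7 of them with a reported log2 change over 0.4 in size. None that passed reversed. Without the block the counts of genes called were 0 under every alternative, each array left out included. The replicate block gave 3 at 8 h and 2 between 8 h and 3 h. Within the blocked fit, alternatives chosen after seeing the data gave 0 at 8 h and 0 between the times without the intensity trend, and 1 between the times after centring on the median. Leaving out an array gave 0 to 1 at 3 h, 1 to 3 at 8 h and 0 to 2 between the times. Centring moved all log2 changes between the times by 0.11. The 2 arrays a group and the lack of detection calls limit what can be seen for dim probe sets such as HMOX1. The cause of these differences was not tested.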
